A study of Mus musculus with 52 samples.

Results

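Promoter accessibility of the genes that define the primitive endoderm was followed in mouse embryonic stem cells (mESCs) by calibrated ATAC-seq (cATAC-seq), in which the Tn5 transposase cuts and tags open chromatin and a fixed addition of Drosophila SG4 cells sets the scale. The 9 genes, chosen by name, were the transcription factors Gata4, Gata6, Sox17, Sox7, Foxa2, Hnf4a and Foxq1, the growth factor receptor Pdgfra and the endocytic adaptor Dab2. They held 11 of the 20633 promoter intervals of 400 bp that were measured, because Pdgfra and Dab2 each had 2 start sites with an interval. No interval passed the test for a change after tamoxifen treatment in any of the 4 conditional lines. In untreated cells 8 CpG-rich intervals were open to a moderate level, though below the median of all CpG-rich intervals in every line. The other 3 were nearly closed.

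The 4 lines were mESCs grown in serum and LIF that carry a tamoxifen-inducible Cre (CreERT2) at Rosa26, each with and without 800 nM 4-hydroxytamoxifen for 96 h. Kdm2a/b-JmjC cells, derived from mice, have loxP sites around the exons of both Kdm2a and Kdm2b that encode the JmjC demethylase domain, and keep short KDM2 forms after treatment. Kdm2a/b-CXXC cells lose the exon for the DNA-binding ZF-CxxC domain of both genes, Kdm2a-CXXC cells that of Kdm2a, and Kdm2b-CXXC cells that of Kdm2b. The Kdm2a-CXXC and Kdm2a/b-CXXC alleles were made by CRISPR in clonal lines, the latter starting from Kdm2b-CXXC cells. Each group had 3 libraries, or 4 in Kdm2a/b-CXXC, numbered as replicates in the labels and called biological replicates in the paper. All untreated cells carried the floxed alleles and every treated group received the drug, so an effect of tamoxifen or active Cre cannot be told apart from one of the deletion. The promoter intervals lie outside the deleted exons and do not check the deletion.

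The primitive endoderm is the extraembryonic layer that segregates from the pluripotent epiblast in the inner cell mass and gives rise to visceral and parietal endoderm. Its founder cells are set by FGF signalling through ERK, which raises GATA6 against NANOG, and then activate GATA4, SOX17 and SOX7. PDGFRA is an early surface marker of the layer, and DAB2, FOXA2 and HNF4A belong to its polarized derivatives. In mESCs these genes are mostly silent or lowly expressed, and many of their CpG-rich promoters are polycomb targets, to which KDM2B recruits a PRC1 complex through its ZF-CxxC domain. Accessibility is not expression. The paper states that the accessibility of CpG island promoters broadly correlates with transcription. An open interval alone does not show that its gene is transcribed.

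Of the 11 intervals, 8 were CpG-rich, here a GC content of at least 50% with a CpG observed to expected ratio of at least 0.6 over the interval, a class that held 54.6% of all intervals with a known sequence. These were Gata4, Gata6, Sox17, Sox7, Foxa2, Foxq1 and the downstream intervals of Pdgfra and Dab2. They held from 21 CpG pairs in Foxa2 to 51 in Foxq1, where the median interval held 24. The other 3, Hnf4a with 11 pairs, the upstream Pdgfra interval with 7 and the upstream Dab2 interval with 3, did not reach the CpG ratio. The contrast can be read in the bases just before the start site of the 5 intervals for which RefSeq promoter sequences (GRCm38.p6) were at hand, given 5′ to 3′ over 200 bases, where capitals mark every CpG pair and every GATA match (AGATAA or TGATAA, on either strand).
Dab2 upstream, chr15:6299589-6299788, plus strand: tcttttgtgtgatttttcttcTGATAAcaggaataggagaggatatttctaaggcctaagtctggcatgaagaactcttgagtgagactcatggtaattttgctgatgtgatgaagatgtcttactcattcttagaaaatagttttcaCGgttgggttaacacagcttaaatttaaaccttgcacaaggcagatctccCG
Dab2 downstream, chr15:6386548-6386747, plus strand: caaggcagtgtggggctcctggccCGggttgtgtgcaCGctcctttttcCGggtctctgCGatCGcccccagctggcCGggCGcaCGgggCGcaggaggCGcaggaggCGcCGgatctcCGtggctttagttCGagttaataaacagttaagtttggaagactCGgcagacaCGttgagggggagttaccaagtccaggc
Pdgfra upstream, chr5:75152051-75152250, plus strand: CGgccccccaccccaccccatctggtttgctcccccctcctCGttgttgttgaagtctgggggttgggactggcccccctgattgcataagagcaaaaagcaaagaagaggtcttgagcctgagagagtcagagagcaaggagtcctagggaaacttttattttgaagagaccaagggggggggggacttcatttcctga
Hnf4a, chr2:163546955-163547154, plus strand: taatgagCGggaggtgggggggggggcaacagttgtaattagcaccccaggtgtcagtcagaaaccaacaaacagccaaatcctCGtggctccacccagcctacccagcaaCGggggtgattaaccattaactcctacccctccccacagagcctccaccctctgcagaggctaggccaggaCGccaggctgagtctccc
Foxa2, chr2:148045465-148045664, minus strand: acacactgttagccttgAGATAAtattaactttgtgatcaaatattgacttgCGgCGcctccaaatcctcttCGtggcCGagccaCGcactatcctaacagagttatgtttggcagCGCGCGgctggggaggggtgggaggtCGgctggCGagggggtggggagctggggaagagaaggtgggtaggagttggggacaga

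The Dab2 pair shows both extremes, with 2 CpG pairs in the upstream stretch and 16 in the downstream one. The upstream Pdgfra stretch held 2 pairs, Hnf4a 4 and Foxa2 10. A GATA match stood at position -179 from the Dab2 upstream start and at -183 from the Foxa2 start. Over the whole intervals, 3 of 11 held a GATA match (Sox7, Foxa2 and Dab2 upstream), against 15.35% of all intervals. The SOX letters ATTGTT or ATTGTC occurred in Gata6 alone of the 11 and in 15.3% of all intervals, and the forkhead letters TGTTTAC in none and in 3% of all. The SP letters GGGCGG occurred in 5 of the 11, with 6 matches in Gata4, and in 56.33% of all intervals. TATAAA was found in Sox17 alone and in 10.43% of all. Of CpG-rich intervals alone, the class of 8 members, 82.71% held the SP letters and 6.27% a GATA match. There the shares were 8.39% for the SOX letters, 1.82% for the forkhead letters and 4.54% for TATAAA. The members with SP letters were Gata4, Sox17, Sox7, Foxq1 and Hnf4a, of which Hnf4a is not CpG-rich. A letter match is a description and not a bound site.

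Depth was 1.49 to 3.03 M promoter reads per library (M, 1000000 reads). At the 8 CpG-rich members this gave between 11 and 137 reads per interval and library, and at the other 3 between 0 and 20. Values below are calibrated reads, the mouse reads in an interval divided by the spike-in size factor of the library, with the SD over libraries. The factors were set separately in each line, so levels were tested only within a line. The Gata6 interval (NM_010258, chr18:11052310-11052709) shares 342 of its bases with the interval of the antisense gene Gata6os, and its reads cannot be assigned to one of them. In these bulk samples a smaller share of cells with an open promoter and a lower accessibility in every cell cannot be told apart.

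As a check of cell identity, the promoters of pluripotency genes were examined in untreated cells. Sox2, a core pluripotency factor, lay between the 80.1 and 91 percentiles of all intervals over the 4 lines, Pou5f1 between 42.1 and 53.6, and Nanog between 43.9 and 68.4. Klf4, Zfp42 and Tfcp2l1, of the same list, lay at the 78.3 percentile or above in every line, and 1 of the 2 Esrrb intervals (NM_001159500) was the lowest, at 17.3 to 19.6. Over the whole lists, the 9 pluripotency intervals lay between the 17.3 and 99.1 percentiles, 5 trophoblast intervals between 14.1 and 61, 3 mesoderm intervals between 32.9 and 61.1 and 4 neural intervals between 35.3 and 79.7. The median of the pluripotency list, 67.3 to 130 untreated calibrated reads over the lines, was above those of the trophoblast list (22.1 to 31.5) and of the mesoderm list (39.1 to 59.1). That of the neural list was 73.6 to 99.4, so the pluripotency and neural lists overlapped. In Kdm2a/b-JmjC the neural median of 83.7 exceeded the pluripotency median of 67.3. The member Gata6 lay above Pou5f1 in every line but Kdm2a-CXXC, with 85 against 52.1 in Kdm2a/b-JmjC. The lists also differ in their share of CpG-rich intervals, so these levels do not settle cell identity.

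In untreated cells Gata6 had the highest level of the 11 in every line. This GATA factor is the earliest to mark primitive endoderm precursors. Its mean was 85 ± 4.28 in Kdm2a/b-JmjC (SD, n = 3) and 77.3 ± 12.1 in Kdm2a/b-CXXC (n = 4). With a single gene floxed it was 87.6 ± 14.5 in Kdm2a-CXXC (n = 3) and 105.1 ± 41.8 in Kdm2b-CXXC (n = 3). The downstream Dab2 interval was next in every line, at 69.6 ± 15.3, 74 ± 10.7, 81 ± 5.35 and 91 ± 5.93 in the same order. The library ranges of these 2 intervals overlapped in each line. Behind them the order differed between lines. Gata4, Sox17, Foxq1 and the downstream Pdgfra interval followed, in an order that changed from line to line, and Sox7 came after them in all lines but Kdm2a-CXXC, where it stood above Sox17. Foxa2 was the lowest of the CpG-rich members in all lines, at 27.1 ± 3.78, 25 ± 8.3, 28.1 ± 4.05 and 33.2 ± 8.57. In the 4 lines, 6, 9, 7 and 9 of the 10 pairs of neighbours in this order had overlapping library ranges, so most places are not separated by these data. The step from Foxa2 down to the next interval was the exception, with separate ranges in each line.

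**Figure D1:**
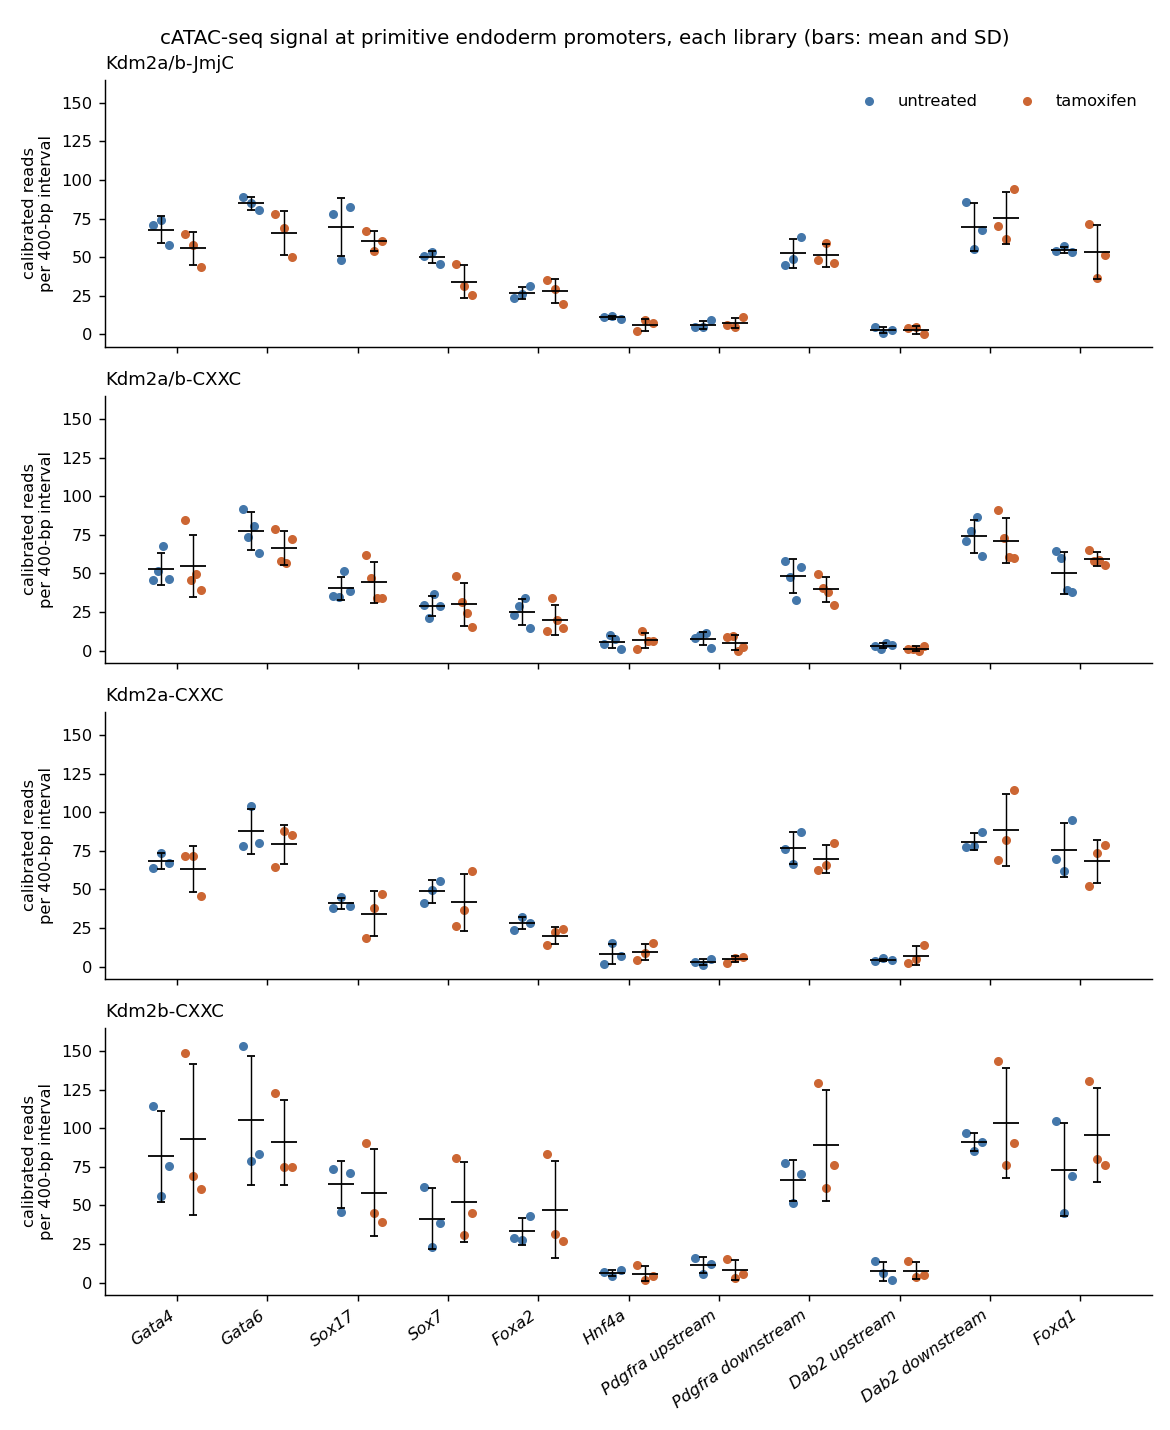
Calibrated reads per 400-bp interval (y axis) of the 11 promoter intervals (x axis) in each untreated (blue) and tamoxifen-treated (orange) library, 1 panel per line, with black bars for the mean and SD. Gata6 and the downstream Dab2 interval lead in every untreated group, Hnf4a and the upstream Pdgfra and Dab2 intervals stay at or below 16.1, and the treated points overlap the untreated ones except at Gata6 and Hnf4a in Kdm2a/b-JmjC.

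None of the 8 CpG-rich members reached the median of all CpG-rich intervals in any untreated line. Their own median was 61.3 in Kdm2a/b-JmjC, where that of all CpG-rich intervals was 126. The values were 49.3 against 106 in Kdm2a/b-CXXC and 71.9 against 158 in Kdm2a-CXXC. They were 69.8 against 160.04 in Kdm2b-CXXC. Gata6, the most open member, lay at the 21.4 to 28.9 percentile of CpG-rich intervals, and Foxa2 at the 1.07 to 1.54 percentile. Measured against all intervals regardless of CpG content, Gata6 lay near the middle, between the 51.6 and 57.1 percentiles. The 3 members that were not CpG-rich had medians of 6.07, 5.6, 4.4 and 7.32 in the 4 lines, where all such intervals had medians of 13.3, 10.9, 14.3 and 14.7. Within the 8 CpG-rich members the number of CpG pairs did not order the levels. Sox7 with 45 pairs lay below Gata6 with 25 in each line.

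**Figure D2:**
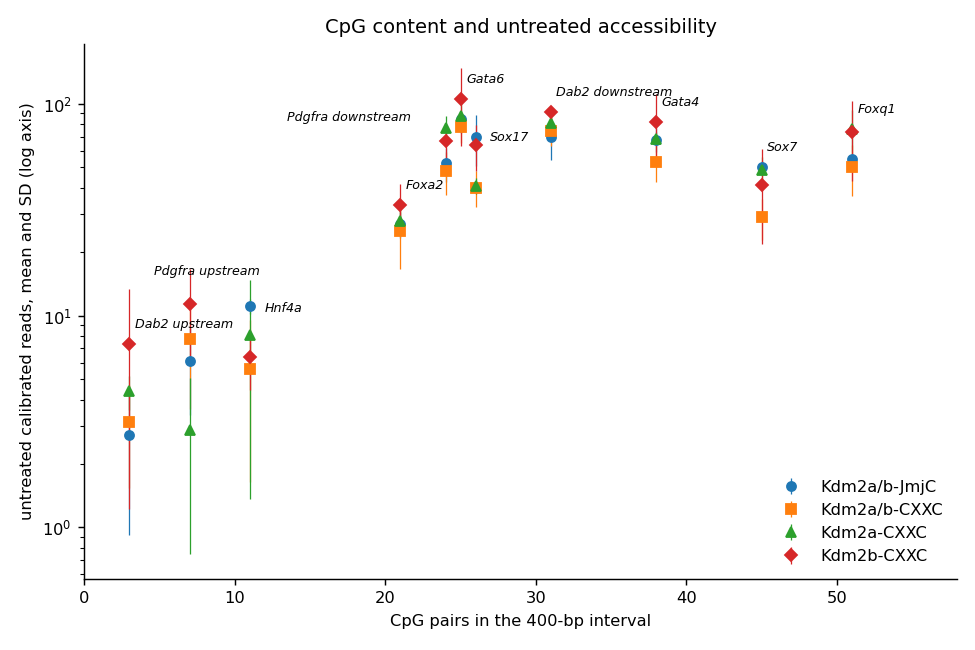
Untreated calibrated reads (y axis, log scale, mean and SD over libraries) against the number of CpG pairs in the interval (x axis), with a symbol and colour for each line. The 3 intervals with 3 to 11 pairs lie between 2.72 and 11.4, and the 8 with 21 to 51 pairs lie between 25 and 105.1.

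Pdgfra and Dab2 allowed the comparison of 2 start sites of the same gene in the same library. PDGFRA is the receptor for PDGF ligands that primitive endoderm cells need for survival, and DAB2 couples endocytic receptors to clathrin. The intervals of the upstream Pdgfra start (NM_011058, chr5:75152091-75152490) and of the downstream one (NM_001083316, chr5:75155966-75156365) begin 3875 bp apart. Over the 26 libraries the upstream interval took 176 reads and the downstream one 1619, a ratio of 9.2, and the downstream interval was higher in 26 of 26 libraries. The ratio ranged from 6.78 in Kdm2a/b-CXXC to 19.8 in Kdm2a-CXXC, where the upstream interval held only 1 to 6 reads per library. The upstream Dab2 start (NM_001008702, chr15:6299589-6299988) lies 86959 bp from the downstream one (NM_001037905, chr15:6386548-6386947). Its interval took 114 reads over all libraries, against 2180 downstream, a ratio of 19.1, again in the same direction in 26 of 26 libraries. Per line the Dab2 ratio lay between 13.9 and 32.1. In both genes the reads therefore fell at the CpG-rich start, and the CpG-poor start, whose sequence is printed above for each gene, stayed at 0 to 14 reads per library. Hnf4a, a nuclear receptor of visceral endoderm and liver, was measured at a single start (NM_008261, chr2:163546988-163547387) and held 1 to 20 reads per library.

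Tamoxifen-treated and untreated libraries were compared line by line. limma was run on the log2 of calibrated reads plus 1, over all intervals that passed a filter on low reads. An interval was called where the p, adjusted by the Benjamini-Hochberg method, was under 0.05 and the change exceeded 1.4-fold. In Kdm2a/b-JmjC cells 9 of the 11 members were tested and 0 were called, where 0.0757% of all tested intervals were called. Of these 9, 1 had an unadjusted p under 0.05, where 20.6% of all intervals did. In Kdm2a/b-CXXC 0 of 8 tested members were called (0% of all) and 0 had an unadjusted p under 0.05 (4.65% of all). In Kdm2a-CXXC 0 of 8 were called (0% of all) and 0 had such a p (8.39% of all). In Kdm2b-CXXC 0 of 9 were called (0% of all) and 0 had such a p (0.669% of all). On recovered whole reads, the quasi-likelihood test of edgeR also called 0 members in each line and gave 1 unadjusted p under 0.05, at Sox7 in Kdm2a/b-JmjC. DESeq2 gave 0 unadjusted p under 0.05 at the members in each line. It called 0 members in the other 3 lines, while in Kdm2a/b-JmjC it gave an adjusted p to 3432 of 20633 intervals and to 0 of the members, so that it could call none there. The upstream Dab2 interval was tested in no line, the upstream Pdgfra interval only in Kdm2b-CXXC, and Hnf4a only in Kdm2a/b-JmjC. Elsewhere they did not pass the filter on low reads, which asks for a minimum, set relative to depth, in several libraries. Hnf4a held 2 to 13 reads per library in Kdm2a/b-JmjC and 2 to 20 in Kdm2a-CXXC.

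The 2 members with all treated libraries below all untreated ones in Kdm2a/b-JmjC were Gata6 and Hnf4a, a pattern seen at 23.2% of all tested intervals of this line. At 0.908% of intervals all treated libraries were higher, and no member did this. In the other 3 lines the groups overlapped at every tested member, where all treated libraries were lower at 0.597% of intervals and higher at 1.8% in Kdm2a/b-CXXC. These shares were 13.4% and 1.12% in the Kdm2a-CXXC line, and 0.446% and 2.13% in the Kdm2b-CXXC line. Gata6 had 89.2, 85.2 and 80.7 calibrated reads in the untreated libraries and 77.9, 68.9 and 50.1 in the treated ones. The groups did not overlap, but the highest treated library was close to the lowest untreated one. The log2 fold change was -0.39 with a standard error (SE) of 0.20 and a 95% interval from -0.79 to 0.01 (limma adjusted p = 0.255). Hnf4a had 11.3, 11.8 and 10.1 untreated and 2.14, 9.4 and 7.16 treated, which are 2 to 13 reads per library. Its log2 fold change of -0.90 had a 95% interval from -2.02 to 0.21 (limma adjusted p = 0.346), and without tamoxifen replicate 1 it was -0.39.

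Sox7 gave the smallest p among the members. This SOX factor follows Sox17 in the primitive endoderm programme, and its interval (NM_011446, chr14:63943506-63943905) reaches into the coding sequence. In Kdm2a/b-JmjC it had 50.8, 53.5 and 45.8 untreated and 45.9, 31.3 and 25.6 treated, so that the groups overlapped narrowly at replicate 1 of the treated and replicate 3 of the untreated libraries. The log2 fold change was -0.57 with an SE of 0.26 and a 95% interval from -1.09 to -0.05 (limma unadjusted p = 0.0308 and adjusted p = 0.202 in the fit across all intervals). The adjusted p ranged from 0.0746 to 0.899 over the 13 other settings that gave one, and DESeq2 gave none. With TMM scaling, which sets the bulk of intervals to no change, the log2 fold change was -0.37 (limma adjusted p = 0.897). In the other lines the groups overlapped. The Sox7 log2 fold change was -0.05 with both ZF-CxxC exons removed, -0.30 in the Kdm2a-CXXC line and 0.32 in the Kdm2b-CXXC line, each with a 95% interval spanning 0.

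The groups of the remaining GATA and SOX factors overlapped as well. Gata4, which acts downstream of Gata6 in the layer (NM_008092, chr14:63245061-63245460), had 71.1, 74.3 and 57.7 untreated and 65.1, 57.9 and 44 treated calibrated reads in Kdm2a/b-JmjC, a log2 fold change of -0.29 with a 95% interval from -0.72 to 0.15. In Kdm2a/b-CXXC its values were 45.4, 51.8, 67.5 and 46.5 untreated and 84.5, 45.8, 49.9 and 39.3 treated. Treated replicate 1 stood above the others there, and the log2 fold change was 0.01 with a 95% interval from -0.44 to 0.46. Sox17 (NM_001289464, chr1:4497155-4497554), which directs the endoderm programme together with the GATA factors, had 38.2, 44.9 and 39.5 untreated and 18.3, 37.7 and 47 treated in Kdm2a-CXXC. The treated libraries lay on both sides of the untreated ones, and the log2 fold change was -0.34 with a 95% interval from -0.91 to 0.22. In Kdm2a/b-JmjC it had 77.9, 48 and 82.5 untreated and 67.3, 54 and 60.4 treated, where untreated replicate 2 was the lowest of all 6 libraries, and the log2 fold change was -0.16 with a 95% interval from -0.59 to 0.27.

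The untreated and treated groups of Gata6 overlapped in each of the ZF-CxxC lines, and whether these lines differ from Kdm2a/b-JmjC was not tested. Its libraries in Kdm2a/b-CXXC had 91.9, 73.7, 80.6 and 62.9 untreated and 78.8, 57.7, 56.7 and 72.2 treated calibrated reads. In Kdm2a-CXXC it had 78.3, 104 and 80 untreated and 64.5, 88 and 85 treated. In Kdm2b-CXXC it had 153, 78.6 and 83.4 untreated and 123, 74.9 and 75.1 treated, with replicate 1 high in both groups. The log2 fold changes were -0.22, -0.14 and -0.18 with 95% intervals from -0.64 to 0.20, from -0.58 to 0.29 and from -0.89 to 0.53. With TMM scaling the Kdm2a-CXXC value turned to 0.0253 and the others stayed negative at -0.30 and -0.28.

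In Kdm2b-CXXC, the line that loses the domain through which KDM2B binds CpG islands, Gata4 had 114, 55.9 and 75.5 untreated and 149, 69 and 60.4 treated calibrated reads. Sox7 had 62.2, 23.4 and 38.6 untreated and 80.8, 30.6 and 44.9 treated. Sox17 had 73.8, 46 and 71.1 untreated and 90.5, 45.3 and 39.2 treated. In all of these the libraries of 1 group spanned a wider range than the distance between the group means. The log2 fold changes were 0.12 for Gata4 with a 95% interval from -0.59 to 0.84, 0.32 for Sox7 with one from -0.45 to 1.08, and -0.19 for Sox17 with one from -0.92 to 0.54.

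Among the forkhead factors, Foxa2, a pioneer factor of endoderm, had its lowest fold change in Kdm2a-CXXC, with 23.9, 32 and 28.4 untreated and 13.9, 22.3 and 24.1 treated calibrated reads. The treated libraries were low but 1 of them exceeded the lowest untreated one. The log2 fold change was -0.49 with a 95% interval from -1.17 to 0.20 (limma adjusted p = 0.637). In Kdm2b-CXXC Foxa2 had 28.8, 27.6 and 43 untreated and 83.6, 31.5 and 26.9 treated, a log2 fold change of 0.34 that rested on treated replicate 1 and was -0.15 without it. Foxq1 (NM_008239, chr13:31557970-31558369) had the largest positive value among the members, 0.42 in Kdm2b-CXXC with a 95% interval from -0.30 to 1.13. Its libraries there had 105, 45.3 and 69.4 untreated and 131, 79.9 and 75.9 treated. Its log2 fold change was 0.27 in Kdm2a/b-CXXC, and the values of -0.09 in Kdm2a/b-JmjC and -0.14 in Kdm2a-CXXC turned positive with TMM scaling.

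The downstream Pdgfra interval had log2 fold changes of -0.03 for the loss of the JmjC domains, -0.27 for that of both ZF-CxxC domains, -0.14 for the loss of the Kdm2a domain alone and 0.36 for that of Kdm2b. In Kdm2a/b-CXXC its libraries had 58.3, 47.8, 32.8 and 54.2 untreated and 49.5, 40.7, 38.1 and 29.7 treated calibrated reads. The groups overlapped, and the 95% interval ran from -0.76 to 0.21. The upstream Pdgfra interval, tested in Kdm2b-CXXC alone, had 16.1, 5.67 and 12.3 untreated and 15.3, 2.96 and 5.71 treated, a log2 fold change of -0.60 with a 95% interval from -1.90 to 0.69. The downstream Dab2 interval had log2 fold changes of 0.12, -0.06, 0.10 and 0.13 in the same order of lines, the narrowest spread between lines of the 8 CpG-rich members. In Kdm2a/b-CXXC its libraries had 71.1, 77.7, 86.2 and 61 untreated and 91.2, 73, 60.6 and 60.2 treated. Its 95% interval there, from -0.48 to 0.35, left out a 1.4-fold change in either direction, as did that of Gata4 in the same line.

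**Figure D3:**
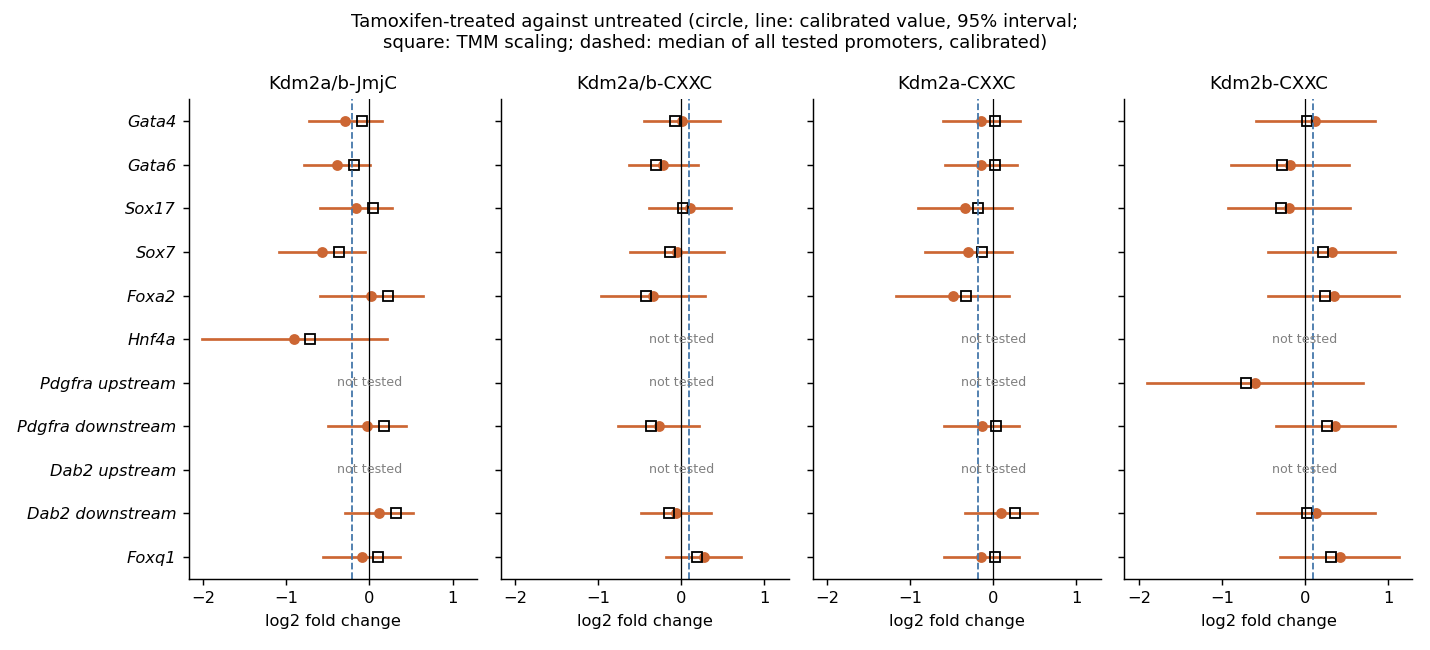
Log2 fold change of tamoxifen-treated against untreated libraries (x axis) for each interval (y axis), 1 panel per line. Circles and horizontal lines give the calibrated value with its 95% interval, open squares the value with TMM scaling, and the dashed line the calibrated median of all tested intervals, and 33 of the 34 horizontal lines span 0, all but Sox7 in Kdm2a/b-JmjC.

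The members lay close to the shift of all promoters in every line but Kdm2a/b-CXXC, where their median was lower. This difference was not tested. Their median log2 fold change was -0.16 in Kdm2a/b-JmjC, where that of all tested intervals was -0.21. It was -0.06 against 0.09 in Kdm2a/b-CXXC and -0.14 against -0.18 in Kdm2a-CXXC. For Kdm2b-CXXC it was 0.13 against 0.10. With TMM scaling the members' medians were 0.04, -0.14, 0.03 and 0.03, and those of all intervals between -0.01 and 0.00. The number of members with a negative sign was 7 of 9, 5 of 8, 7 of 8 and 3 of 9 as calibrated and 4, 6, 3 and 3 with TMM scaling, so in Kdm2a/b-JmjC and in Kdm2a-CXXC the signs followed the scale. Single libraries also turned the sign of the calibrated median. It was -0.15 without treated replicate 1 and -0.03 without untreated replicate 2 in Kdm2b-CXXC, and 0.08, 0.01 and 0.04 without treated replicate 4, treated replicate 3 and untreated replicate 3 in Kdm2a/b-CXXC. The precision sets what these data could have shown. Of the 34 tested combinations of member and line, 26 had a 95% interval that lay within a 2-fold change on either side, and 2 had one within 1.4-fold. Changes smaller than 2-fold are thus not left out at most members, and in Kdm2b-CXXC the 95% interval of 5 of 9 members reached a 2-fold change.

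The spread between replicates differed by line and by scale. Over the 8 CpG-rich members, the median coefficient of variation within a group was 13.5% in untreated and 21.9% in treated Kdm2a/b-JmjC libraries. In Kdm2b-CXXC it was 31% and 44.3% as calibrated and 15.8% and 16.6% with TMM scaling, where counting error alone would give 11.5% and 11%. Treated replicate 1 was the highest of its group at 8 of these 8 members and at 92.1% of all tested intervals, and untreated replicate 1 at 7 of 8 members and 90.1% of all. In Kdm2a/b-CXXC treated replicate 1 was the highest of 4 at 7 of 8 members and at 76.4% of all intervals. The high values of single members in these libraries thus came with high values at most promoters.

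The share of promoter reads that fell on the 11 intervals gives the members' level relative to all promoters. It was 271 ± 22.1 reads per M in untreated and 278 ± 15.2 in treated Kdm2a/b-JmjC libraries (SD, n = 3 each). It was 273 ± 24.6 and 243 ± 8.05 in Kdm2a/b-CXXC (n = 4 each), with the lowest untreated library at 240.7 and the highest treated at 250.3. The Kdm2a-CXXC line had 226 ± 4.75 and 237 ± 14, and the Kdm2b-CXXC line 255 ± 10.5 and 261 ± 37 (n = 3 each). Untreated and treated libraries overlapped in each line.

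Relative levels also differed between lines, compared here as log2 TMM-scaled reads per M and as a description only, since line, clone and preparation cannot be told apart. Sox17 was high in Kdm2a/b-JmjC, by a log2 difference of 0.63 from the mean of the other lines in untreated and 0.83 in treated cells. The median of the 922 promoters on chromosome 1 was also higher in that line, by 0.37 and 0.39 on the log2 scale. In treated cells the Sox17 libraries of Kdm2a/b-JmjC, at 36.8 to 39.7 reads per M, all lay above those of the other lines, and in untreated cells they overlapped. In Kdm2a-CXXC Sox17 was lower than in the other lines, by a log2 difference of -0.70 untreated and -0.79 treated, where the chromosome 1 median was 0.11 and 0.13. Promoters of chromosome 1 spread widely in this line. Their 10th to 90th percentiles ran from -0.66 to 0.84 untreated and from -0.66 to 0.81 treated, not far above the values of Sox17 at the lower end. The untreated Sox17 libraries of Kdm2a-CXXC, at 16.7 to 20.6 reads per M, all lay below those of the other lines, which began at 22.5, and the treated ones overlapped. Sox7 in untreated Kdm2a/b-JmjC cells, at 26.2 to 28.9 reads per M, lay above all untreated libraries of the other lines, which reached 23.5, and after treatment the lines overlapped. Its chromosome 14 median differed by -0.02. The downstream Pdgfra interval in treated Kdm2a/b-CXXC cells, at 22.7 to 25.1 reads per M, lay below all treated libraries of the other lines, at 28.5 to 40.5, where its chromosome 5 median differed by 0.02. No member was set apart from the other lines in both treatments.

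**Figure D4:**
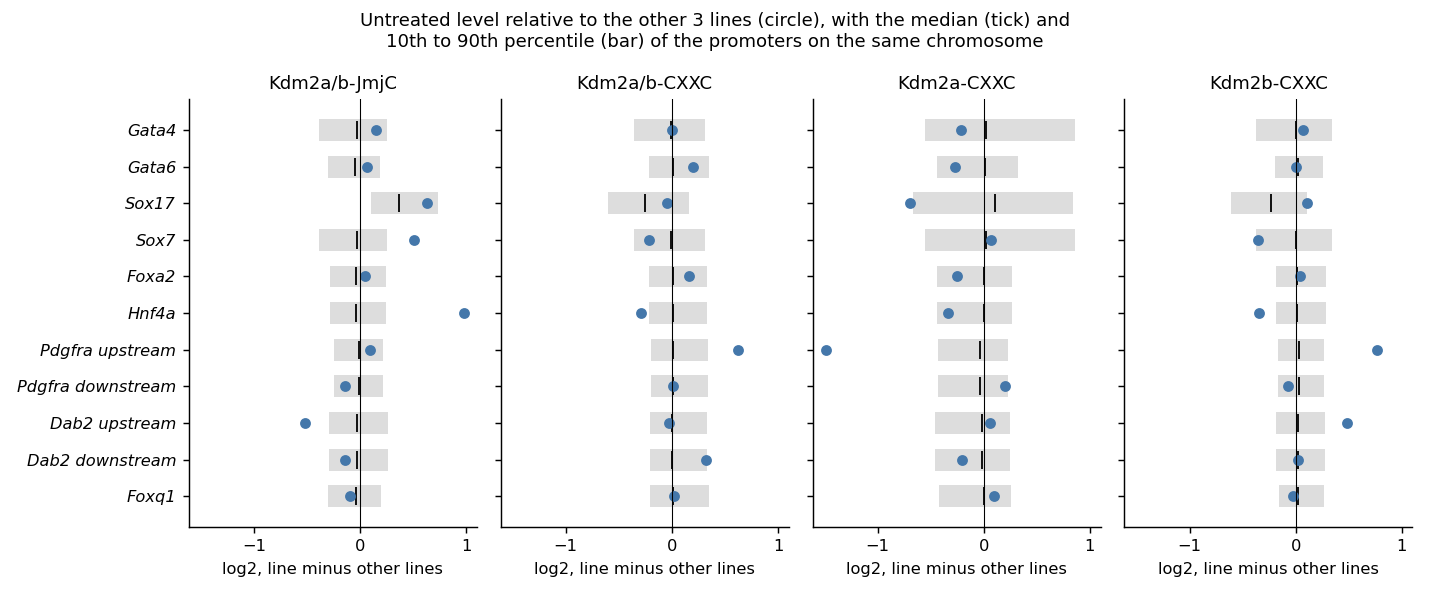
Untreated level of each interval (y axis) in 1 line minus the mean of the other 3 lines, as log2 TMM-scaled reads per M (x axis, circles), with the median (tick) and the 10th to 90th percentile (grey bar) of promoters on the same chromosome. Sox17 sits at 0.63 in Kdm2a/b-JmjC beside a chromosome median of 0.37, and the wide departures of the upstream Pdgfra interval and Hnf4a rest on 0 to 20 reads per library.

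Across the 26 libraries, the promoter most like Gata6 in TMM-scaled level was its overlapping neighbour Gata6os (Pearson r = 0.96), which shares most of its bases. For the 9 intervals other than those of Gata6 and Sox17, the highest r lay between 0.64 and 0.76. These are the highest of 16032 values each and the libraries share line and calibration, so they are given as a description. The highest r between 2 different members was 0.46, for Sox17 and the upstream Pdgfra interval.

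Beyond the members, 10 lists of genes around the primitive endoderm were examined, from the FGF and ERK genes upstream of it to its visceral and parietal derivatives, with the markers of the mESC state and of other lineages. Of their 77 genes 74 were in the tables, with 81 intervals. As with the members, limma called 0 of these intervals in any line on the calibrated scale. In Kdm2a/b-JmjC 19 of 79 tested intervals had an unadjusted p under 0.05, all of them lower after treatment, where 20.6% of all tested intervals had such a p. It was 10 of 77 in Kdm2a/b-CXXC, 6 lower and 4 higher, where the share of all was 4.65%. All 8 of 77 were lower in Kdm2a-CXXC, where the share of all was 8.39%, and 0 of 79 had such a p in Kdm2b-CXXC (0.669% of all). edgeR called 1 of them, Thbd in Kdm2a/b-JmjC. DESeq2 called 0, but in Kdm2a/b-JmjC it gave an adjusted p to only 13 of the 81 listed intervals.

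The 16 intervals of the FGF and ERK list, which carries the signal that specifies the layer, had a median log2 fold change of -0.22 in Kdm2a/b-JmjC, with 5 lower at an unadjusted p under 0.05 and 0 higher (20.6% of all tested intervals had such a p), and of 0.13, -0.17 and 0.14 in the other lines. Each of these was within 0.05 of the median of all intervals. Their promoters were open, with an untreated median between 134 and 230 calibrated reads over the lines. The 6 parietal endoderm intervals had the lowest median of the lists in Kdm2a/b-JmjC, -0.66 over 5 tested, with 3 lower at an unadjusted p under 0.05 (20.6% of all tested intervals had such a p). Thbd, encoding the thrombomodulin of parietal endoderm, had 66.6, 68.9 and 74.2 untreated and 41.6, 32.9 and 35.8 treated calibrated reads there. The groups were well apart, and the log2 fold change of -0.91 (SE 0.24) had a limma adjusted p of 0.0515, or 0.88 with TMM scaling, and an edgeR adjusted p of 0.0431. In the same line Rbp4, the retinol carrier made by visceral endoderm, had a log2 fold change of -0.72 (limma adjusted p = 0.107).

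The other lists in Kdm2a/b-JmjC had an unadjusted p under 0.05, always lower after treatment, at 4 of 14 tested visceral endoderm intervals, 2 of 12 intervals of other endoderm factors, 2 of 9 of basement membrane genes, 1 of 5 of trophoblast, 1 of 3 of mesoderm and 1 of 4 of neural markers. These counts stand beside a share of 20.6% over all tested intervals of the line, and most were near it. The 2 PDGF ligands and the 9 pluripotency intervals had 0. Their median log2 fold changes were -0.32 for visceral endoderm, -0.21 for other endoderm factors, -0.25 for basement membrane, -0.31 for trophoblast, -0.13 for mesoderm, -0.25 for neural markers, -0.40 for the PDGF ligands and -0.13 for pluripotency. With the median of all intervals at -0.21 in this line, these lists lay on both sides of it. The pluripotency list, which the primitive endoderm programme opposes, had medians of -0.20 in Kdm2a/b-CXXC (2 of 8 lower at an unadjusted p under 0.05, against 4.65% of all intervals with such a p), of -0.16 in Kdm2a-CXXC (1 of 9 lower, against 8.39% of all) and of 0.00482 in Kdm2b-CXXC (0 of 9).

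In Kdm2a/b-CXXC the smallest p values among the lists were those of Otx2, Elf5 and Pdgfa. Otx2, a homeobox factor of epiblast and visceral endoderm, had 40.5, 50.8, 67.5 and 59.1 untreated and 25.9, 17, 37.2 and 31.3 treated calibrated reads, with no overlap. The change was -0.97 on the log2 scale with an SE of 0.26 (limma adjusted p = 0.282). Pdgfa, a ligand of PDGFRA, had 84.9, 84.7, 102 and 64.9 untreated and 60.8, 54.3, 45 and 46.5 treated, also without overlap, and -0.69 as its log2 fold change (SE 0.22) at a limma adjusted p of 0.673. With TMM scaling both passed the thresholds, as did 0.104% of all tested intervals in this line. Otx2 then had a log2 fold change of -1.06 (limma adjusted p = 0.0187) and Pdgfa one of -0.77 (limma adjusted p = 0.0207). In TMM-scaled fits that left out 1 of the 8 libraries in turn, Otx2 passed in 4 of 8 and Pdgfa in 2 of 8, with adjusted p values from 0.00882 to 0.148 and from 0.0178 to 0.148. The receptor's own downstream interval had a TMM-scaled log2 fold change of -0.36 in this line (limma adjusted p = 0.598). Elf5, a trophoblast factor, had a log2 fold change of -1.24 (limma adjusted p = 0.673).

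In Kdm2a-CXXC the smallest p values were those of the pluripotency factor Pou5f1, at -0.71 on the log2 scale (SE 0.23) and a limma adjusted p of 0.581, of Foxa1, a paralogue of Foxa2, with -0.70, and of Bmp2, a visceral endoderm signal, with -0.51. In Kdm2b-CXXC they were those of Otx2 with -0.58, of Cubn, a visceral endoderm receptor that works with megalin, with -0.67, and of Prdm14, a pluripotency factor, with -0.41. All 6 had an adjusted p of 0.581 or more. The Otx2 value was thus negative in Kdm2a/b-CXXC and Kdm2b-CXXC, and whether the lines differ was not tested.

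**Figure D5:**
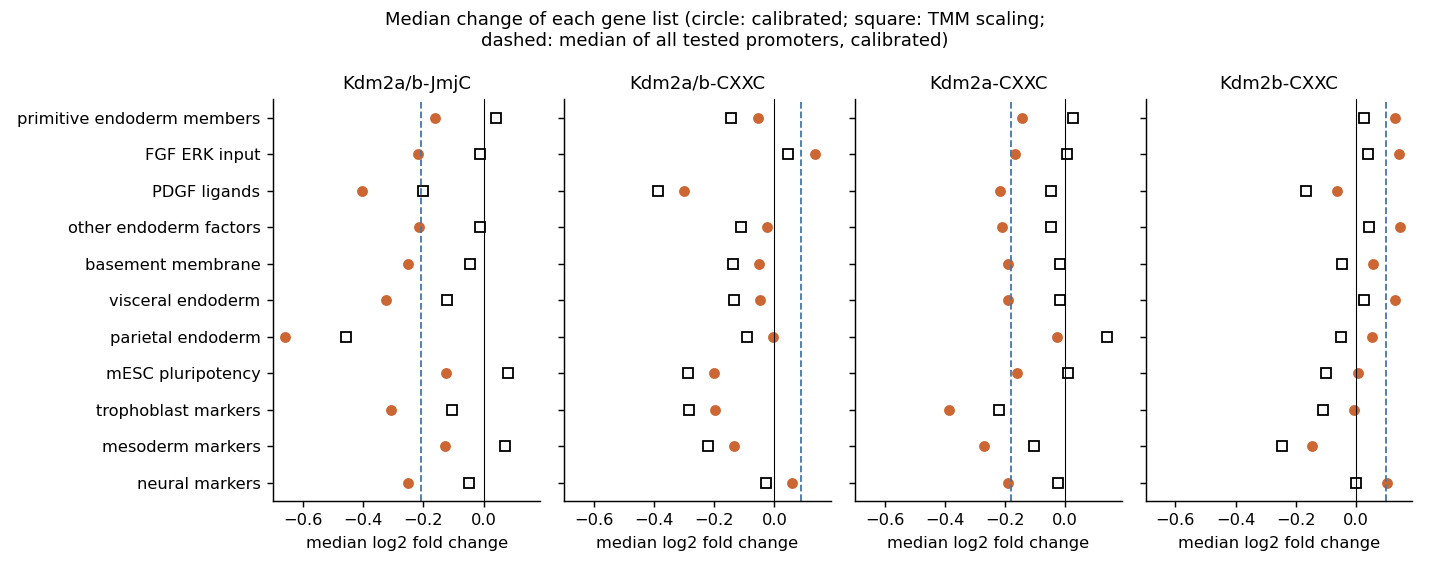
Median log2 fold change of the tested intervals in each list (x axis) by list (y axis), 1 panel per line, as calibrated (circles) and with TMM scaling (open squares), with the calibrated median of all tested intervals as a dashed line. In Kdm2a/b-CXXC, where the dashed line is at 0.09, every list but that of FGF and ERK lies below it, at -0.30 to 0.06. In the other lines the lists lie on both sides of it. The largest departure is the parietal endoderm list in Kdm2a/b-JmjC at -0.66 over 5 intervals.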

How the data were processed

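Calibrated ATAC-seq was analysed in 26 libraries of 4 mESC lines. Another 26 samples, input genomic DNA with which the authors corrected the spike-in ratio, are not analysed here. The authors aligned paired-end reads to joined mm10 and dm6 genomes with Bowtie 2, removed duplicates and counted mouse reads over promoter intervals. Each deposited library column holds a signal, the reads of an interval divided by the spike-in size factor of that library, with 1 table per line. The deposited columns of comparisons (base mean, log2 fold changes, standard errors, statistics and p-values) were not used.

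Whole reads were recovered from the steps between values (100% of values whole within 0.01 reads) and set the depth, the low-value filter (edgeR 4.0.16 filterByExpr), TMM scaling and the count tests. RefSeq identifiers were matched to symbols for 99.1% of intervals, and start coordinates, counted from 0 in the files, are printed from 1. mm10 is GRCm38, the build of the reference used.

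The main test was limma 3.58.1 with a mean trend on log2(calibrated reads + 1) in R 4.3.3, with each line fitted alone and p-values adjusted by the Benjamini-Hochberg method over all tested intervals. The design allowed edgeR for raw counts or limma for normalized values, and the values were normalized. The procedure was run on simulated reads with changes planted at the more open intervals, a range that leaves out the least open members. The same size factors were used to draw and to scale these reads, so an error of calibration was not simulated. Alternatives were TMM, median-of-ratios and total-read scaling, a pseudocount of 4, no filter, edgeR, DESeq2 1.42.0, a replicate block, each library left out and the adjusted p alone. TMM scaling with a library left out was added after seeing the data.

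The 9 genes, the lists and the motifs were chosen with earlier results of these data known. All members were named in every line. From the lists, the 3 intervals with the smallest p in each line were named, with any that passed both thresholds; 1 of them, and the likeness result of 1 member, are not reported here. The TMM values of Otx2 and Pdgfa were set out after they were seen. The likeness search took the highest Pearson r over intervals tested in every line. Libraries with the same replicate number correlated by 0.0725 at most in their deviations from group means, under the limit of 0.1, so the main test did not treat them as pairs. This correlation runs across intervals and cannot see a shift shared by all intervals of a library. In Kdm2b-CXXC replicate 1 was the highest of its group at 90.1% of all tested intervals untreated and at 92.1% treated. Fits with a replicate block are given below. PCR copies without molecular identifiers make counting errors a lower limit.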

Additional observations from a re-analysis of the deposited data

How the results depend on the processing

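No member was called in any of the 4 lines under any alternative, though DESeq2 gave the members no adjusted p in Kdm2a/b-JmjC, and the lowest adjusted p was 0.0746 (limma, Sox7 in Kdm2a/b-JmjC without tamoxifen replicate 1). The fold changes of the 34 member and line combinations changed sign in 58 of 492 values under alternatives, 24 of them under another scaling, 32 with a library left out and 2 under a count test, all at log2 fold changes that were not called. In Kdm2a/b-JmjC, TMM, median-of-ratios and total-read scaling gave log2 fold changes of 0.0405, 0.043 and 0.0488 for Sox17, 0.17, 0.18 and 0.18 for Pdgfra downstream and 0.11, 0.11 and 0.12 for Foxq1, and the median of the members moved from -0.16 to the Sox17 values of 0.0405, 0.043 and 0.0488. In Kdm2a/b-CXXC, Gata4 became -0.0758, -0.077 and -0.0816 with the 3 scalings, and Sox7 became 0.0124 with edgeR and 0.0209 with DESeq2. In Kdm2a-CXXC the same 3 scalings gave 0.0273, 0.0318 and 0.0418 for Gata4, 0.0253, 0.0298 and 0.0400 for Gata6, 0.0318, 0.0363 and 0.0464 for Pdgfra downstream, and 0.0255, 0.0300 and 0.0401 for Foxq1. Another scaling moves all intervals of a line together, by about the calibrated median given in the report.

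With each library left out in turn, the median of the members ranged from -0.33 to -0.12 in Kdm2a/b-JmjC. Its sign changed in Kdm2b-CXXC, with values between -0.15 and 0.37, and likewise for Kdm2a/b-CXXC, with values between -0.20 and 0.08. For the Kdm2a-CXXC line the values lay between -0.25 and -0.01. The log2 fold changes that changed sign ranged in Kdm2a/b-JmjC from -0.15 to 0.26 for Foxa2, from -0.14 to 0.11 for Pdgfra downstream, from -0.0533 to 0.28 for Dab2 downstream and from -0.33 to 0.14 for Foxq1. In Kdm2a/b-CXXC they ranged from -0.21 to 0.15 for Gata4, from -0.069 to 0.23 for Sox17, from -0.31 to 0.22 for Sox7 and from -0.19 to 0.0126 for Dab2 downstream. In Kdm2a-CXXC they ranged from -0.25 to 0.0696 for Gata4, from -0.61 to 0.0447 for Sox17, from -0.10 to 0.26 for Dab2 downstream and from -0.28 to 0.0338 for Foxq1. In Kdm2b-CXXC they ranged from -0.28 to 0.39 for Gata4, from -0.41 to 0.12 for Gata6, from -0.55 to 0.0413 for Sox17, from -0.0492 to 0.66 for Sox7, from -0.15 to 0.65 for Foxa2 and from -0.13 to 0.32 for Dab2 downstream.

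Counts over all promoters moved more. In Kdm2a/b-JmjC 13 were called by limma, 0 with each of the other scalings, 70 with a pseudocount of 4, 113 by edgeR, and 0 to 622 with a library left out, the highest without tamoxifen replicate 1. In Kdm2a/b-CXXC the 0 became 17, 17 and 18 with the other scalings and 0 to 8 with a library left out, and in Kdm2b-CXXC the 0 became 1 with each scaling. In Kdm2a-CXXC the 0 became up to 50, without tamoxifen replicate 3. With a replicate block the counts were 62 for Kdm2a/b-JmjC, 0 for Kdm2a/b-CXXC, 188 for Kdm2a-CXXC and 5 for Kdm2b-CXXC, and 0 members were called, with no sign changed. Same-numbered libraries correlated by -0.009 to 0.0725, and 8 of 13 pairs correlated best with their own number. These correlations cannot see a shift shared by all intervals. The block therefore rests on shared numbers, and whether these mark true pairs is not settled. The cause of these moves was not tested. At 11 to 137 reads per CpG-rich member, depth and replicate spread limit the size of change that could be seen.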
